A study of Mus musculus with 2 samples.

Results

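The 8 genes described here encode transcription factors that mark position along the axes of the developing retina: Tbx2, Tbx3, Tbx5, Vax1, Vax2, Nr2f1, Nr2f2 and Foxd1. They were picked by symbol from the 31053 genes of the count matrices. They were followed in single cells of mouse eyecups at E13.5, which hold retina, lens and blood. There was 1 library per genotype, a littermate control (Six3+/-;Six6+/-) and a double knockout (Six3F/F;Six6-/-;a-Cre, DKO), each from the eyecups of a single embryo. In the DKO, Six6 was inactive in the germline, whereas Six3 was removed by a Cre that acts in the peripheral retina, so the library mixes Six3-deficient cells with cells that kept Six3. The control was heterozygous for both genes and carried no Cre, and per the study's methods its Six3 null allele came from stray Cre activity in the germ line of the sire. Loss of Six3 and position in the eye cannot be told apart in the DKO library, because the deletion follows position.

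The retina is patterned across a dorsoventral and a nasotemporal axis before its neurons connect to the brain. BMP signals on the dorsal side switch on T-box factors, while the ventral homeobox factors Vax1 and Vax2 hold the ventral side, and each side represses the other. Nuclear receptors of the COUP-TF family and the forkhead factor Foxd1 mark further domains, Foxd1 the temporal side. These factors set the graded ephrins and Eph receptors that guide ganglion cell axons to their map positions.

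On the dorsal side, Tbx2 (chr11:85832551-85841948, plus strand, mm10), Tbx3 (chr5:119670669-119684724, plus) and Tbx5 (chr5:119832668-119885219, plus) encode T-box factors, and Tbx5 is the most strictly dorsal of them. On the ventral side, Vax1 (chr19:59166187-59170056, minus) is best known from the optic stalk and Vax2 (chr6:83711264-83738313, plus) from the ventral retina. Nr2f1 (chr13:78188973-78199757, minus) and Nr2f2 (chr7:70351944-70366735, minus) encode the orphan receptors COUP-TFI and COUP-TFII, which act together in the patterning of the optic stalk and the dorsoventral axis. Foxd1 (chr13:98354242-98359305, plus) encodes the temporal forkhead factor. Antisense transcripts overlap exons of Tbx3 (Tbx3os1), Vax2 (Vax2os) and Nr2f1 (A830082K12Rik) in the counted annotation. The 3' libraries keep the strand, so each was counted apart from its partner.

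Vax1 and Nr2f2 were the 2 members that stood more than 2-fold higher in DKO naive-like progenitors, and the 250 bases before their RefSeq transcription starts are shown for that reason, read 5' to 3' on the minus strand of GRCm38.p6. The Vax1 stretch spans chr19:59170398-59170647 and the Nr2f2 stretch chr7:70366747-70366996.
Vax1: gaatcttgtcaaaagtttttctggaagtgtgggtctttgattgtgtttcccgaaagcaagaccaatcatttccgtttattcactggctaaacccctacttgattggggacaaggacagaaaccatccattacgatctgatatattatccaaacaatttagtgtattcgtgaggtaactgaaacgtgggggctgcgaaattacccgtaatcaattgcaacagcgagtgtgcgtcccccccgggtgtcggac
Nr2f2: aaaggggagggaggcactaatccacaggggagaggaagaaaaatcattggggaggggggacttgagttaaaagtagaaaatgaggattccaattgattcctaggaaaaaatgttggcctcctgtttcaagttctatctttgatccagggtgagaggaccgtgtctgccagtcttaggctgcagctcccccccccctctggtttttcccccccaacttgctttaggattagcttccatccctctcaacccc
Motifs were searched on both strands: the sine oculis homeobox core TGATAC, the homeodomain core TAATTA, the T-box core TCACACC and the nuclear receptor hexamer AGGTCA. None of them lies in either stretch, so no letters stand in capitals. Across 32851 promoter windows of the same length, 4.64% held the sine oculis core, 4.84% the homeodomain core, 3.33% the T-box core and 14.0% the nuclear receptor hexamer. The absence of these letters from a window of this size says nothing of the factors themselves.

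The control library held 9822 cells with 80511672 unique molecular identifiers (UMIs, counted transcripts), at a median of 7620 per cell. The DKO library held 12146 cells with 81056488 UMIs, at a median of 5879. The libraries shared 22 cell barcodes. Cells were clustered without the members and named from fixed markers. This gave naive-like progenitors (3102 control and 3085 DKO cells), neurogenic-like progenitors (1409 and 1699), ganglion-like cells (794 and 1519), ciliary margin-like cells (298 and 321) and smaller neuronal classes. A cluster with pigment epithelium and ciliary margin markers in equal measure is called the pigmented margin cluster (920 and 1095 cells), and an unnamed cluster led by Lhx9 held 148 control and 1305 DKO cells. Levels are given as UMIs per 1000000 UMIs of the class (CPM), and ratios as the log2 of DKO over control with 95% counting intervals. Those intervals cover counting error within 1 library and not the spread between embryos, so no test of genotype was possible.

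Six6, which is disrupted in every DKO cell, stood at 380 CPM in control and 44.0 CPM in DKO naive-like cells, a log2 ratio of -3.11 (-3.20 to -3.02). Six3 stood at 314 and 239 CPM there, at 749 and 834 CPM in ganglion-like cells, and at 672 and 266 CPM in the Lhx9-led cluster. Removal of exon 1 may leave 3' Six3 transcripts to be counted, and the deposited matrices list no Cre gene. Red blood-like cells, which should lack the members, held 0 to 14 UMIs of 7 members per library, while Nr2f1 had 47 UMIs (5.24 CPM) in the control and 42 (11.6 CPM) in the DKO.

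**Figure D1:**
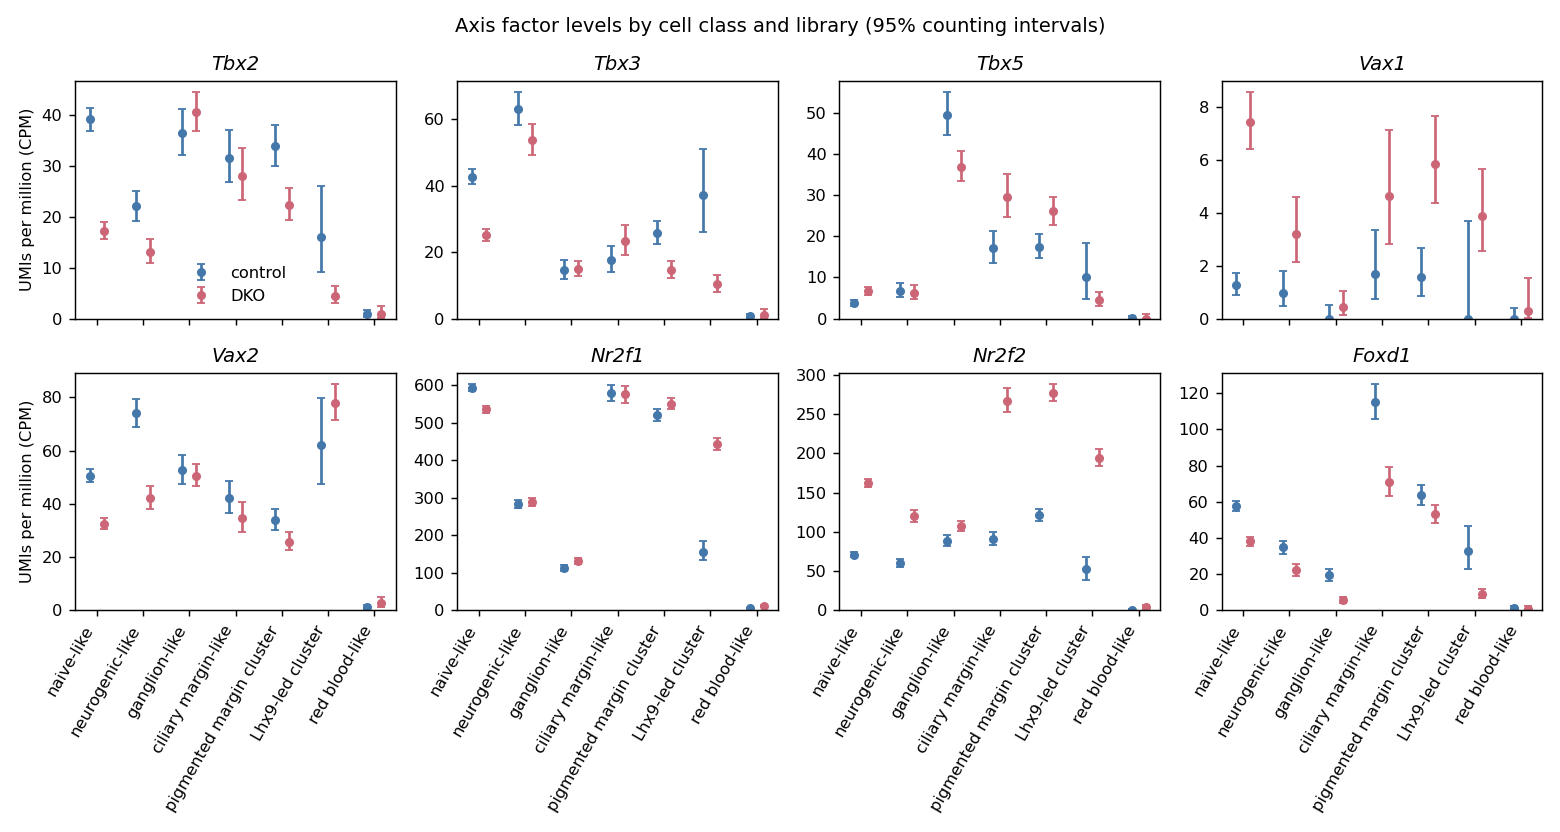
Level of each axis factor in UMIs per 1000000 (CPM, vertical axis, linear, 1 scale per gene) in 7 classes of cells, for the control (blue) and DKO (red) library. Points are sums over all cells of a class and bars are 95% Poisson counting intervals. Nr2f2 lies higher in the DKO in the naive-like, neurogenic-like, ciliary margin-like and pigmented margin groups, and Tbx5 is highest in ganglion-like cells in both libraries.

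In control retinal cells, Tbx3 was at 102 CPM (79.9 to 127) in amacrine or horizontal-like cells, 74.7 CPM (52.4 to 103) in photoreceptor-like cells and 63.1 CPM (58.3 to 68.1) in neurogenic-like progenitors, against 42.7 CPM in naive-like progenitors and 14.5 CPM in ganglion-like cells. Tbx5 ran the other way, at 3.69 CPM (3.03 to 4.46) in naive-like progenitors, 6.75 CPM in neurogenic-like progenitors and 49.6 CPM (44.6 to 55.1) in ganglion-like cells. Tbx2 was similar in naive-like (39.1 CPM), ganglion-like (36.4 CPM), pigmented margin (33.8 CPM) and ciliary margin-like cells (31.5 CPM), whose intervals overlap, higher in photoreceptor-like cells (68.5 CPM, 47.2 to 96.2) and lower in neurogenic-like progenitors (22.0 CPM).

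Of the ventral factors, Vax2 was highest in control neurogenic-like progenitors at 74.0 CPM (68.8 to 79.5). Ganglion-like cells (52.6 CPM) and naive-like progenitors (50.5 CPM) had overlapping intervals, and that of ciliary margin-like cells (42.1 CPM, 36.5 to 48.4) just reached both. Pigmented margin cells (33.8 CPM, 30.0 to 38.0) lay below ganglion-like and naive-like cells, and photoreceptor-like cells were at 16.6 CPM (7.17 to 32.7). Vax1 was rare throughout the control, with 37 UMIs among 3102 naive-like cells (1.25 CPM) and 0 UMIs among ganglion-like cells, where the interval reaches 0.523 CPM.

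Nr2f1 was in the control at 594 CPM in naive-like, 579 CPM in ciliary margin-like, 283 CPM in neurogenic-like and 112 CPM in ganglion-like cells. Nr2f2 was highest in the pigmented margin cluster (121 CPM, 114 to 129) and was at 60.6 CPM in neurogenic-like progenitors and 31.1 CPM (17.4 to 51.4) in photoreceptor-like cells. Foxd1 was highest in ciliary margin-like cells (115 CPM, 106 to 125), at 63.9 CPM in the pigmented margin cluster, 57.7 CPM in naive-like progenitors and 19.6 CPM in ganglion-like cells.

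In DKO naive-like progenitors, 2 members stood more than 2-fold higher than in the control, Vax1 and Nr2f2, and 1 stood more than 2-fold lower, Tbx2. Among all 13729 genes with at least 20 UMIs, 4.34% were as far above and 2.05% as far below. The median of the 8 members was -0.38 and that of all genes 0.02 on the log2 scale.

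Nr2f2 was at 70.9 CPM in control and 162 CPM in DKO naive-like cells, a log2 ratio of 1.19 (1.11 to 1.27), and 35.7% of control cells and 56.5% of DKO cells held at least 1 UMI. Vax1 was at 1.25 and 7.42 CPM, a ratio of 2.56 (2.05 to 3.11). Both were higher in each of the 3 naive-like clusters, by 1.0 to 1.40 for Nr2f2 and 1.94 to 3.07 for Vax1. Tbx5 was also higher in the DKO at 6.59 against 3.69 CPM (0.84, 0.48 to 1.20), although its ratio was 0.14 (-0.69 to 0.98) in the third of these clusters.

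The other dorsal factors were lower. Tbx2 was at 39.1 CPM in control and 17.2 CPM in DKO naive-like cells (-1.18, -1.34 to -1.02), and Tbx3 at 42.7 and 25.1 CPM (-0.77, -0.91 to -0.63). Vax2 was at 50.5 and 32.5 CPM (-0.63, -0.76 to -0.51), Foxd1 at 57.7 and 38.1 CPM (-0.60, -0.71 to -0.48) and Nr2f1 at 594 and 536 CPM (-0.15, -0.18 to -0.12). Dorsal members thus lay on both sides of 0, and so did ventral ones.

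These values depend on which DKO cells counted as naive-like. When the libraries were clustered together without integration, the class held 3864 control and 1751 DKO cells, and Six3 in it stood at 299 and 387 CPM. The Tbx2 ratio was then -0.40, the Tbx3 ratio 0.07 (-0.07 to 0.21), the Tbx5 ratio 1.38, the Vax1 ratio 0.84, the Foxd1 ratio -0.22 and the Nr2f2 ratio 0.94.

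**Figure D2:**
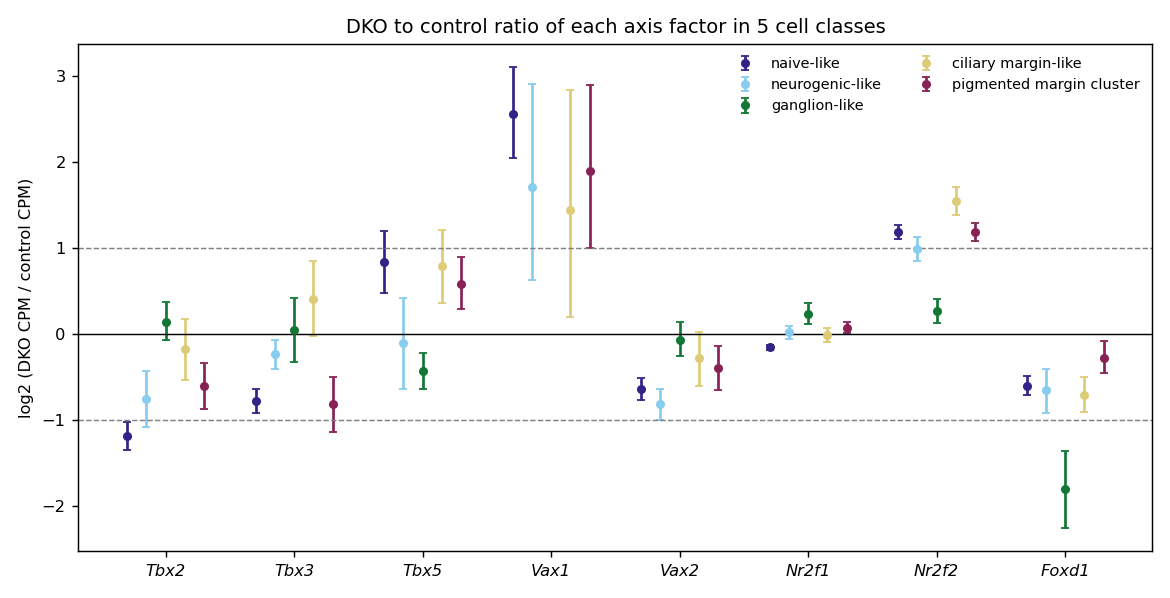
Log2 ratio of DKO to control CPM (vertical axis) for each axis factor in 5 classes, with 95% counting intervals from the exact binomial split of UMIs; dashed lines mark 2-fold. Vax1 in ganglion-like cells has no point because the control held 0 UMIs. Nr2f2 and Vax1 lie above 0 in every class drawn for them, whereas Tbx5 lies above 0 in naive-like cells and both margin groups and below 0 in ganglion-like cells.

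In neurogenic-like progenitors Nr2f2 stood at 60.6 CPM in the control and 120.0 CPM in the DKO (0.99, 0.85 to 1.13). Vax1 had 10 control and 29 DKO UMIs there (1.71, 0.63 to 2.91) and was the only member past 2-fold, where 4.38% of 12214 genes were as far above and 2.12% as far below. Vax2 was at 74.0 and 42.1 CPM (-0.81, -1.0 to -0.64), Tbx2 at 22.0 and 13.1 CPM (-0.75) and Foxd1 at 34.8 and 22.1 CPM (-0.65). Nr2f1 and Tbx5 had intervals that include 0. The class holds clusters 3 and 9, and Foxd1 had ratios of -1.12 (-1.50 to -0.75) in cluster 3 and -0.05 (-0.41 to 0.30) in cluster 9, and Tbx2 of -1.05 (-1.55 to -0.55) and -0.28 (-0.74 to 0.16). Vax1 had a ratio of 2.26 (0.71 to 4.26) in cluster 3 and 0.74 (-1.16 to 2.64) in cluster 9.

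In ganglion-like cells, Foxd1 stood at 19.6 CPM in the control and 5.63 CPM in the DKO (-1.80, -2.25 to -1.36), and it was the only 1 of 7 members with enough UMIs that lay past 2-fold. Of all 12088 genes tested in this class, 1.68% were as far below and 4.51% as far above. Foxd1 was lower in both clusters of the class, by -2.08 in cluster 7 and -1.25 in cluster 10. Tbx5 fell on opposite sides in them: 88.7 and 43.5 CPM in cluster 7 (-1.03, -1.25 to -0.80) and 11.0 and 21.2 CPM in cluster 10 (0.95, 0.36 to 1.55). Cluster 7 held 364 control and 996 DKO cells and cluster 10 held 430 and 523, so the pooled ratio of -0.43 mixes unlike shares. Nr2f2 had a pooled ratio of 0.27, at -0.09 in cluster 7 and 0.74 in cluster 10. Nr2f1 moved from 0.24 to 1.09 when the libraries were clustered without integration.

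Both margin populations carried more Nr2f2 in the DKO. It was at 91.2 and 267 CPM in ciliary margin-like cells (1.55, 1.39 to 1.71) and at 121 and 277 CPM in the pigmented margin cluster (1.19, 1.09 to 1.30). Vax1 was higher too, at 1.69 and 4.62 CPM (1.45, 0.20 to 2.84, from 8 and 20 UMIs) and at 1.57 and 5.85 CPM (1.90, 1.0 to 2.90). These were the 2 members past 2-fold in each population, where 3.64% and 3.95% of all genes were as far above and 1.41% and 2.40% as far below. Tbx5 was at 17.1 and 29.6 CPM in ciliary margin-like cells (0.79, 0.37 to 1.21) and at 17.4 and 26.2 CPM in the pigmented margin cluster (0.59, 0.29 to 0.90). Foxd1 was at 115 and 71.1 CPM in ciliary margin-like cells (-0.70) and at 63.9 and 53.1 CPM in the pigmented margin cluster (-0.27).

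In the Lhx9-led cluster, most of whose cells came from the DKO, Nr2f1 was at 157 CPM in the 148 control cells and 443 CPM in the 1305 DKO cells (1.49, 1.26 to 1.73). Nr2f2 was at 52.1 and 194 CPM (1.90) and Vax2 at 62.1 and 78.0 CPM (0.33, -0.05 to 0.73), whereas Tbx2, Tbx3 and Foxd1 had ratios of -1.84, -1.84 and -1.86. This cluster was not given a cell type. The study reported a cluster made only of DKO cells, with Rspo3 raised in it, and Rspo3 is also among the leading genes here. Six3 stood at 672 CPM in the control and 266 CPM in the DKO cells of the Lhx9-led cluster. Whether its control and DKO cells are of the same kind was not tested, so these ratios may compare unlike cells.

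In naive-like cells and with members pooled, the share with a ventral UMI was smaller among cells with a dorsal UMI than among the others. With every cell thinned to 2000 UMIs, 23 of 487 control naive-like cells with a dorsal-set UMI (Tbx2, Tbx3 or Tbx5) also held a ventral-set UMI (Vax1 or Vax2), which is 4.72% (3.02 to 7.0). Of the 2581 cells without a dorsal UMI, 8.21% (7.18 to 9.34) held a ventral one. In the DKO the shares were 2.49% of 281 and 7.44% of 2756 cells. The log2 ratio of these shares was -0.80 (-1.40 to -0.19) in the control and -1.58 (-2.65 to -0.51) in the DKO. Without thinning it was -0.58 and -1.23, and it was below 0 in both libraries under each alternative that gave a value.

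In neurogenic-like cells, 3.90% of 231 control cells with a dorsal UMI and 12.7% of those without held a ventral UMI, and in the DKO 2.05% of 195 and 8.77%. For ganglion-like cells, control shares were 3.92% and 10.1%, and DKO shares 3.38% and 9.25%, and the control log2 ratio of -1.36 had an interval that includes 0 (-2.78 to 0.06). In control ciliary margin-like cells 0 of 39 cells with a dorsal UMI held a ventral one (an interval up to 9.03%), against 7.36% of the others. Without thinning these control shares were 25.7% and 46.6%. In DKO photoreceptor-like cells the shares were 4.17% (0.105 to 21.1) with a dorsal UMI, from 1 of 24 cells, and 3.61% (0.752 to 10.2) without. Unthinned, these DKO shares were 2.94% and 6.33%. In the DKO Lhx9-led cluster the log2 ratio was -0.38 (-1.39 to 0.64). It was 0.61 (-0.96 to 2.17) with cells thinned to 1000 UMIs, -1.31 (-2.34 to -0.29) at 4000 UMIs and -0.51 (-1.05 to 0.02) unthinned. Thinning to 2000 UMIs left out 34 control and 48 DKO naive-like cells. At this depth 0.377% of control and 0.370% of DKO red blood-like cells held a dorsal UMI.

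The share of naive-like cells with a dorsal UMI only was 15.1% in the control and 9.02% in the DKO, a log2 ratio of -0.75 (-0.95 to -0.54). The share with a ventral UMI only was 6.91% and 6.75% (-0.03, -0.30 to 0.23), and the share with neither was 77.2% and 84.0%. In ganglion-like cells the log2 ratio was 0.12 (-0.21 to 0.44) for dorsal only and -0.14 (-0.55 to 0.27) for ventral only.

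Tbx5 and Vax2 separate dorsal from ventral cells, so cells with a UMI of Tbx5 and none of Vax2 (Tbx5-only) were set against cells with the reverse (Vax2-only). Naive-like cells gave 93 Tbx5-only and 794 Vax2-only control cells, and 145 and 541 DKO cells. Tbx5-only cells had a median of 8877 UMIs and Vax2-only cells 10304 in the control. In the control, 3.62% of 11129 genes were more than 2-fold higher and 3.98% more than 2-fold lower in Tbx5-only cells.

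Genes known from either pole lay on their own side, save that Ephb3 could not be placed. Of the 4 dorsal genes, Bmp4, which encodes the dorsal ligand, was at 12.4 CPM in control Tbx5-only and 1.20 CPM in Vax2-only cells, the ephrin Efnb2 at 294 and 71.5 CPM, Efnb1 at 36.0 and 8.19 CPM, and Aldh1a1, a retinoic acid-synthesising enzyme, at 1990 and 275 CPM. Of the 5 ventral genes, the BMP receptor Bmpr1b was at 9.0 and 77.4 CPM and the enzyme Aldh1a3 at 21.4 and 148 CPM. Pax2 was at 3.38 and 13.7 CPM (-2.02, -4.31 to -0.44), from 3 UMIs in Tbx5-only cells. All 3 were past 2-fold lower, while the receptors Ephb2 (-0.65) and Ephb3 (-0.34, -2.67 to 1.32) were not. Ephb3 also had 3 UMIs in Tbx5-only cells. The nasal genes Efna2, Efna5 and Hmx1 and the temporal receptor Epha5 stayed within 2-fold, from -0.66 to 0.83, and Epha6 was at 1.19 with an interval of -0.37 to 2.50.

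**Figure D3:**
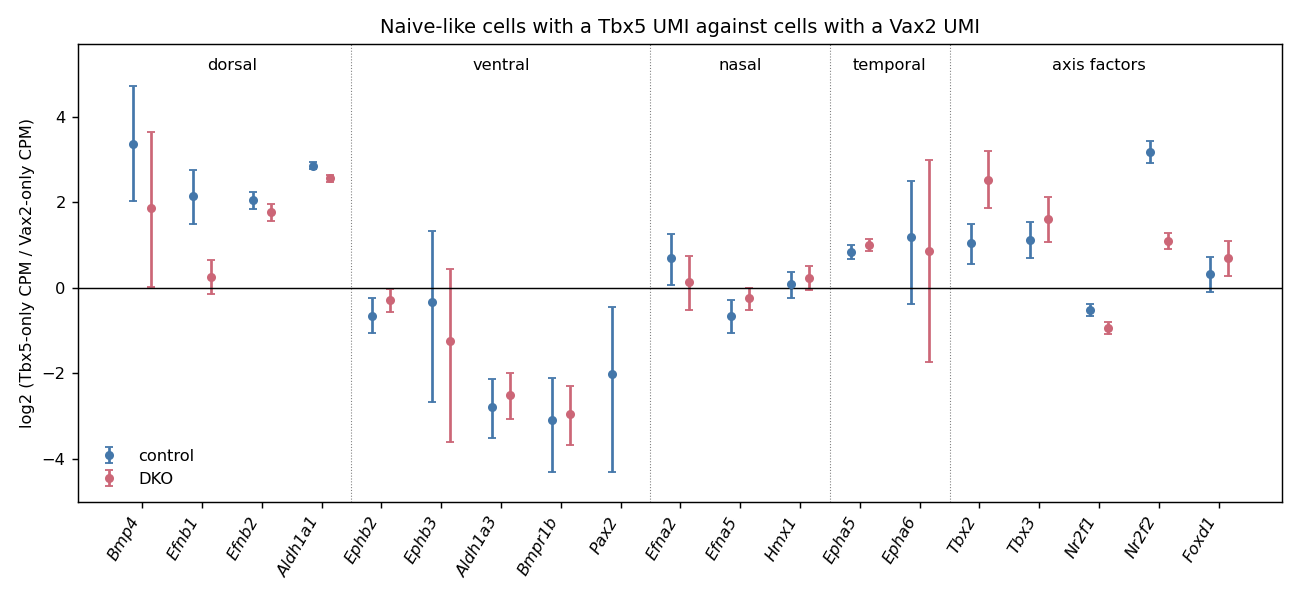
Log2 ratio of Tbx5-only to Vax2-only naive-like cells (vertical axis) for 14 axis genes and 5 axis factors, in control (blue) and DKO (red), with 95% counting intervals. Pax2 has no DKO point because Tbx5-only cells held 0 UMIs. Nr2f2 stands at 3.17 in the control and 1.10 in the DKO, and Efnb1 at 2.14 and 0.26.

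Nr2f2 was at 258 CPM in control Tbx5-only naive-like cells and 28.6 CPM in Vax2-only cells, a log2 ratio of 3.17 (2.91 to 3.43). In the DKO it was at 273 and 128 CPM (1.10, 0.91 to 1.28). Within Tbx5-only cells the DKO to control ratio was 0.09 (-0.16 to 0.33), whereas within Vax2-only cells it was 2.16 (1.95 to 2.37), a 4.46-fold higher level. The difference between these ratios was 2.07 (1.76 to 2.38). In the DKO, Nr2f2 therefore differed less between the poles than in the control, with the gap closing from the Vax2-only side.

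Over all DKO naive-like cells, Efnb1 showed a like arrangement. It was at 8.19 CPM in control and 44.3 CPM in DKO Vax2-only cells (2.43, 2.06 to 2.83) but at 36.0 and 53.1 CPM in Tbx5-only cells (0.56, -0.06 to 1.21), a difference of 1.88 (1.17 to 2.58). The ratio between the poles was 2.04 in the control and 1.76 in the DKO for Efnb2, and 2.85 and 2.56 for Aldh1a1. Their differences lay in the same direction but were smaller, at 0.28 (0.0 to 0.56) and 0.30 (0.18 to 0.41). Tbx2 went in the other direction, from 26.3 to 6.28 CPM in Vax2-only cells (-2.07, -2.62 to -1.56) and from 54.0 to 36.1 CPM in Tbx5-only cells (-0.58, -1.19 to 0.02). Vax1 was at 3.06 and 13.6 CPM in Vax2-only cells and had 0 and 1 UMI in Tbx5-only cells. Nr2f1 was the one COUP-TF gene with higher levels on the ventral side, at 484 against 699 CPM in the control and 364 against 701 CPM in the DKO.

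In ganglion-like cells, where Tbx5 is more abundant (109 Tbx5-only and 218 Vax2-only control cells, 188 and 339 DKO cells), the Nr2f2 gap was of one size in both libraries. Nr2f2 was at 252 and 24.8 CPM in the control (3.35, 2.90 to 3.82) and 307 and 32.2 CPM in the DKO (3.25, 2.92 to 3.61). Six3 was not lower in DKO ganglion-like cells (749 and 834 CPM), so they differ from naive-like cells in Six3 as well as in class. Tbx2 was at 127 and 6.07 CPM in the control and 124 and 11.2 CPM in the DKO. Efnb1 in Vax2-only ganglion-like cells was at 2.02 CPM in the control and 20.6 CPM in the DKO, from 4 and 55 UMIs. In the control, 2.67% of 8915 genes were over 2-fold higher and 2.94% over 2-fold lower in Tbx5-only ganglion-like cells. Foxd1 was at 15.9 and 16.7 CPM in Tbx5-only and Vax2-only control cells.

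**Figure D4:**
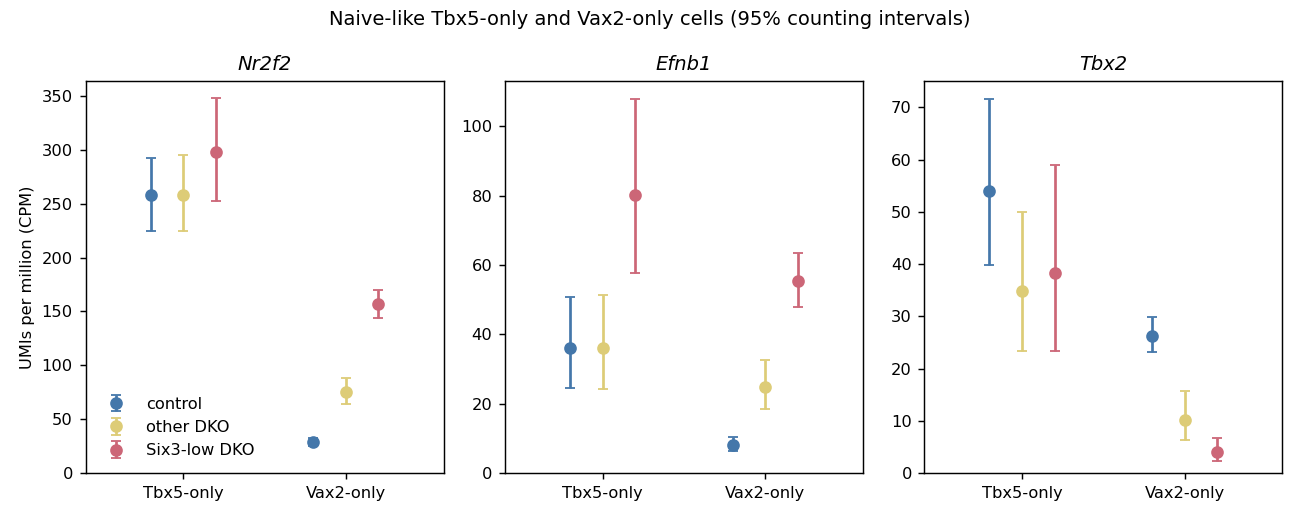
Levels of Nr2f2, Efnb1 and Tbx2 (CPM, vertical axis) in naive-like Tbx5-only and Vax2-only cells, for control cells (blue), DKO cells outside the Six3-low subclusters (yellow) and Six3-low DKO cells (red), with 95% Poisson intervals. In Vax2-only cells Nr2f2 steps from 28.6 CPM to 75.6 CPM and 157 CPM.

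With the members left out, the genes with the highest control ratio of Tbx5-only to Vax2-only naive-like cells were Unc5b, Bambi, Aldh1a1, Vstm2b and Adamts9, from 3.90 to 2.60, of which Aldh1a1 is also 1 of the dorsal genes above. Unc5b, a netrin receptor, was at 65.3 and 4.37 CPM in the control and 27.3 and 7.33 CPM in the DKO. The lowest were Edaradd, Vax2os, Smoc1, Ntm and Rdh13. Vax2os, the transcript antisense to Vax2, was at 4.50 and 69.1 CPM in the control and 2.21 and 53.0 CPM in the DKO. Rdh13 was at 1.13 and 12 CPM in the control, from 1 and 110 UMIs. In the DKO it was at 6.63 and 7.15 CPM, from 9 and 41 UMIs. All these genes were picked for extreme control ratios, so their control and DKO ratios do not stand on an equal footing.

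DKO naive-like cells were split by Six3, using whole subclusters of DKO cells clustered alone. Subclusters 3, 6 and 15 held 37.1%, 34.4% and 43.6% of the control Six3 level and were called Six3-low, and the next, at 51.9%, was not. The split gave 1561 Six3-low cells (117 CPM of Six3) and 1524 others (382 CPM). The members were left out of clustering, so their levels did not choose these cells.

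Levels are given in the order control, other DKO cells, Six3-low DKO cells. Nr2f2 was at 70.9, 141 and 179 CPM, with a log2 ratio to control of 0.99 (0.90 to 1.09) in other DKO cells and 1.34 (1.25 to 1.42) in Six3-low cells. Vax1 was at 1.25, 3.07 and 11.1 CPM. Tbx2 was at 39.1, 26.4 and 9.39 CPM, Tbx3 at 42.7, 39.7 and 12.7 CPM, and Foxd1 at 57.7, 52.6 and 25.7 CPM, each lowest in Six3-low cells by -1.49, -1.65 and -1.03 against other DKO cells. Tbx5 was highest in other DKO cells, at 3.69, 9.02 and 4.51 CPM, and Vax2 was lowest in other DKO cells at 50.5, 26.1 and 38.1 CPM. Nr2f1 was at 594, 489 and 576 CPM. Since the Cre acts in the peripheral retina, peripheral position and Six3 level cannot be told apart here.

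The step in ventral cells followed the same order. Of DKO Vax2-only cells 339 were Six3-low and 202 were not, against 51 and 94 of Tbx5-only cells. The comparison of the poles over all DKO naive-like cells thus mixes unlike shares of Six3-low cells. Nr2f2 in Vax2-only cells was at 28.6 CPM in the control, 75.6 CPM (64.2 to 88.4) in other DKO cells and 157 CPM (144 to 170.0) in Six3-low cells, and Efnb1 at 8.19, 24.7 and 55.3 CPM. In Tbx5-only cells Nr2f2 was at 258, 258 and 298 CPM with overlapping intervals. Efnb1 in Tbx5-only cells was at 36.0 CPM (24.6 to 50.8), 36.0 CPM and 80.1 CPM (57.7 to 108). Its higher level in Six3-low cells was thus not confined to Vax2-only cells. Foxd1 in Tbx5-only cells was at 63.0, 74.4 and 13.4 CPM, the last from 7 UMIs in 51 cells.

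**Figure D5:**
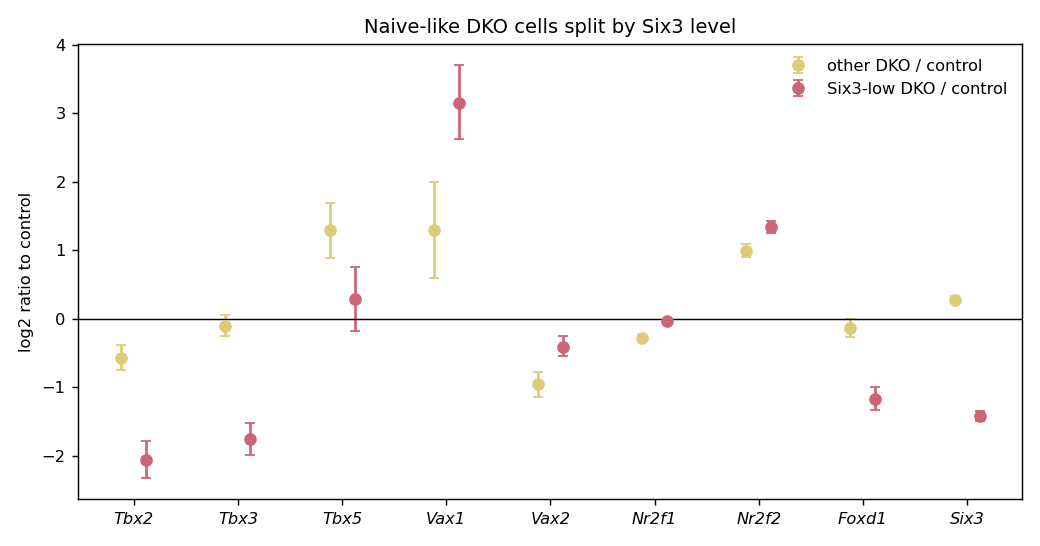
Log2 ratio to control of each axis factor and of Six3 in naive-like DKO cells, for other DKO cells (yellow) and Six3-low cells (red), with 95% counting intervals. Tbx2, Tbx3 and Foxd1 lie lowest in Six3-low cells, Vax1 and Nr2f2 highest, and Tbx5 is highest in the other DKO cells.

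Over the 24 groups of a class or cluster in a library with at least 50 cells, the genes with the pattern most like each member were found by Pearson correlation of log2(CPM + 1), which is a description since groups share libraries and depth. For Tbx3 this was Rorb (0.94), for Vax2 Tox (0.93), for Nr2f1 Cdh11 (0.95) and for Nr2f2 Fam171b (0.94). Foxd1 went with Zic1 (0.93), Tbx5 with Fstl4 (0.91) and Tbx2 with Kctd8 (0.89). The nearest gene to Vax1 was Bmpr1b at 0.76.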

How the data were processed

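Single-cell RNA sequencing of E13.5 eyecups was done by the authors with the 10x Genomics 3' kit, 1 library per genotype. The authors mapped reads to mm10 and counted unique molecular identifiers per gene and cell with Cell Ranger 3.1.0. The deposited values are raw UMI counts. Cells with over 200 and under 6000 genes and under 20% mitochondrial UMIs were kept, which leaves the cell numbers given for each library.

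The libraries were integrated and clustered at resolution 0.5 in Seurat 5.3.0 (R 4.3.3), leaving out the members, the 14 listed axis genes, genes the study names, hemoglobin and sex-linked genes. A cluster of the 22 was named when at least 75% of a class's fixed markers were raised by 0.3 log2 over other cells. It stayed unnamed where classes tied, where its leading genes favoured another class, where most cells were called doublets, or where its median UMI count was low. These naming thresholds were set after the clusters were seen. Scrublet (scanpy 1.11.5) called 3.05% of control and 2.71% of DKO cells as doublets, at the DKO threshold of 0.225, because the automatic control threshold of 0.635 called 0; they were kept in the reported values.

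UMIs of each gene were summed over a class in a library. Intervals are at 95% and cover counting error only. They are exact Poisson for levels, and exact binomial for shares and for the split of UMIs behind ratios, by scipy 1.17.1. A log-normal approximation was used for ratios of shares and for differences between the ratios of Vax2-only and Tbx5-only cells. A group at 0 was set to a floor of 3 UMIs per group, and no ratio was given where both held 3 or fewer. With 1 library per genotype there is no test and no p-value. Of the interval code, only that for ratios of UMIs was tested on simulated counts. The check of thinning on simulated counts covered cell totals only. Gene names for Tbx5-only and Vax2-only cells are the 5 highest and 5 lowest ratios among genes with at least 50 UMIs, and genes like a member are those of highest correlation among genes of at least 50 CPM in a group. Alternatives were resolution 1, no integration, no gene left out, another linear algebra kernel, doublets or cells under 1000 genes left out, other scaling and other thinning depths. The members and lists were chosen with earlier results of these data known. Tbx5-only and Vax2-only cells of the ganglion-like class, their comparison between genotypes, their split by Six3 and the single ganglion-like clusters were added after seeing the data. Promoter sequences are from RefSeq (GRCm38.p6), which matched 4 of the 8 members. Gene positions are from GENCODE vM21 (GRCm38).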

Additional observations from a re-analysis of the deposited data

Results flagged for a closer look

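The Tbx5 ratio of DKO to control lay on opposite sides of 0 between classes. It was 0.84 in naive-like progenitors, 0.79 in ciliary margin-like cells and 0.59 in the pigmented margin cluster, but -0.43 in ganglion-like cells. The difference between classes was not tested, since each genotype had 1 library. The Nr2f1 ratio was -0.15 in naive-like progenitors, 0.24 in ganglion-like cells and 0.08 in the pigmented margin cluster, and this difference was not tested either.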

How the results depend on the processing

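No paired analysis was possible because only 1 library per genotype was sequenced. Without integration of the libraries, naive-like log2 ratios were -0.40 for Tbx2, 1.38 for Tbx5, 0.84 for Vax1, -0.78 for Vax2, -0.25 for Nr2f1, 0.94 for Nr2f2 and -0.22 for Foxd1, and Tbx3 crossed to 0.07. With no gene left out of clustering they were -0.89 for Tbx2, -0.53 for Tbx3 and -0.51 for Vax2, with another kernel -1.02 for Tbx2, and at resolution 1 they were 1.07 for Nr2f2 and -0.40 for Foxd1. On the Seurat scale, a log2 of depth-scaled counts (to 10000 per cell) with 1 added, they were -0.25 for Tbx2, -0.18 for Tbx3, 0.04 for Tbx5, 0.09 for Vax1, -0.16 for Vax2, -0.11 for Nr2f1, 0.60 for Nr2f2 and -0.19 for Foxd1, a scale on which the added 1 shrinks ratios of low genes. The log2 ratio of the naive-like share with neither kind of UMI was 0.12, 0.07 when thinned to 1000 UMIs and 0.25 when thinned to 4000. In ganglion-like cells, Tbx5 was 0.95 in cluster 10 alone and Nr2f2 was -0.09 in cluster 7 alone, both settings chosen after seeing the data. Of the naive-like results, 62 values under alternatives stayed within the counting interval of the reported value, 23 moved and 1 crossed 0. The causes were not tested beyond what the settings themselves change. With no Six3-low subcluster under 33% of the control level, that alternative gave no value. Depth limits Vax1 and Tbx5 in naive-like cells, which rest on 37 and 109 control UMIs.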
